A study of Mus musculus with 24 samples.

Results

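The genes described here encode the proteins of the cytosolic ribosome. They were taken by name from the gene table: every row whose Ensembl identifier maps to a symbol made of Rpl or Rps and a number, with an optional final letter or number, together with Rplp0, Rplp1, Rplp2 and Rpsa. Names of processed pseudogenes that end in -ps were left out. This gave 88 of 43432 genes, 52 with large-subunit names and 36 with small-subunit names. Of the 88, 77 are the standard proteins found in most cells, 6 are protein-coding paralogs (Rpl3l, Rpl7l1, Rpl10l, Rpl22l1, Rpl39l, Rps27l) and 5 are annotated as pseudogenes although their names fit the rule (Rpl6l, Rps3a2, Rps3a3, Rps4l, Rps12l1). The name rule leaves out genes such as Rack1, Fau and Rpl36al, which also encode ribosomal proteins and are given with the other lists.

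Transcripts were measured in 24 libraries of mouse heart RNA depleted of ribosomal RNA (strain C57BL/6 throughout), 4 in each of 6 groups. Hearts labelled TAC-LVH were taken 2 weeks, and hearts labelled TAC-HF 8 weeks, after transverse aortic constriction (TAC), surgery that narrows the aorta so that the left ventricle pumps against a raised pressure. Sham-LVH and Sham-HF hearts came from mice operated without the constriction, and the labels give no time after surgery for them. Running hearts came from mice with 8 weeks of exercise on a wheel, set against Sedentary hearts from mice that were neither exercised nor operated. LVH stands for left ventricular hypertrophy and HF for heart failure. No group carries an engineered allele, and the labels give neither sex nor age, nor which chambers were taken. Each library is labelled as a separate sample of its group, but nothing states whether a library is 1 animal. A heart in the values given here therefore stands for 1 library, and the p-values measure the spread between these libraries.

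As background, ribosomal proteins clothe the ribosomal RNAs of the small subunit, which reads the messenger RNA, and of the large subunit, which joins amino acids. Their messenger RNAs are short and abundant and begin with a C followed by an unbroken run of pyrimidines, the terminal oligopyrimidine (TOP) tract, through which mTOR complex signalling governs their translation. In a heart under load, ribosome formation is known to go with the growth of cardiomyocytes, and striated muscle has its own version of a large-subunit protein, Rpl3l, which can take the place of Rpl3.

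The libraries held 16802939 to 39512101 counts, of which ribosomal protein genes took 55018 to 182627. Levels are given as CPM, counts brought to 1 common total with TMM factors, which match the 24 libraries on the bulk of their genes. Mitochondrially encoded genes held 50.7% to 73.6% of the counts. Their share was 54.3% ± 3.30 in TAC-LVH and 62.3% ± 1.96 in Sham-LVH hearts, and 55.2% ± 2.05 in TAC-HF and 64.1% ± 2.51 in Sham-HF hearts (SD, n = 4 each). A fit without these genes is given with the alternatives at the end, and the part of their share in the results was not tested otherwise. Markers of cardiomyocytes (8 of 8) were detected in every group. Of the 88 genes, 86 passed the filter on low counts in each comparison. Rpl10l and Rpl39l, known as testis paralogs, had at most 1 and 3 counts in any library and were not tested.

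Promoter sequences are shown for the members called in the same direction at both times after TAC, because the TOP tract begins at the start of transcription, and for the pair of members with a single listed window and the longest pyrimidine runs. Each line gives 30 bases before and 20 from the start of transcription, 5′ to 3′ on the gene's strand, from RefSeq on GRCm38.p6, and capitals mark the longest run of C and T that comes within 10 bases of the start. Of the 88 members, 63 have windows in the table, and Rpl3, which was higher at both times, is not among them.
Rpl10: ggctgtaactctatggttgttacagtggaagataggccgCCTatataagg
Rpl12: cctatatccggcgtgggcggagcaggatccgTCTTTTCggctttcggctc
Rpl13a: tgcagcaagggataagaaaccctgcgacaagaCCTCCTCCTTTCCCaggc
Rpl22: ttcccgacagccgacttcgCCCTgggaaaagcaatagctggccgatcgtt
Rpl39: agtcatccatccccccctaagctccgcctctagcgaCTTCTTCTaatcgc
Rps12: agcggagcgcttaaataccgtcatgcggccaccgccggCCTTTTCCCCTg
Rpl3l: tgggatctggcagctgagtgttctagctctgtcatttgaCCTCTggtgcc
Rpl7a: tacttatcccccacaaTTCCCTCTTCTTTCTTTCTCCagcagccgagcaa
Rpl27a: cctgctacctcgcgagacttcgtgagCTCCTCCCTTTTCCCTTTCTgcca
These stretches lie at chrX:74270786-74270835, chr2:32961682-32961731, chr4:152325696-152325745, chr17:24727796-24727845, chr2:26910777-26910826 and chr7:109519165-109519214 on the plus strand. Those of Rpl13a, Rpl39 and Rps12 lie at chr7:45128726-45128775, chrX:37085203-37085252 and chr10:23787190-23787239 on the minus strand. Rpl22 and Rpl3l each have 1 further listed start, not printed here. The run is 21 bases long in Rpl7a, 20 in Rpl27a, 14 in Rpl13a, 11 in Rps12, 8 in Rpl39, 7 in Rpl12, 5 in Rpl3l, 4 in Rpl22 and 3 in Rpl10. A marked run can lie before the listed start, as in Rpl22, so it need not be a TOP tract.

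Across all the listed windows of ribosomal protein genes, 30 of 75 (40%) held such a run of at least 8 pyrimidines, against 14.0% of the 32851 windows in the table. The string CCGGAAG, searched on both strands over the 300 bases of a window, was in 36.0% of the members' windows and in 8.86% of all windows. AAGATGG, searched likewise, was in 16.0% of the members' windows and in 6.34% of all windows. CCGGAAG read on the other strand begins with pyrimidines and so can overlap the run. A window reaches 50 bases past the listed start, so a match of either string can also lie in the transcribed part. These are matches of letters and do not show binding.

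Rpl3l had the largest called change of any member at both times after TAC, and it fell while Rpl3 rose. Rpl3, a core protein of the large subunit next to the site of peptide bond formation, had 85.3, 85.9, 79.96 and 86.9 CPM in TAC-LVH hearts, against 45.0, 52.8, 59.8 and 46.3 CPM in Sham-LVH hearts. Rpl3l, its counterpart in heart and skeletal muscle, had 7.21, 12.2, 13.2 and 9.66 CPM in TAC-LVH hearts, against 38.4, 31.0, 26.7 and 29.8 CPM in Sham-LVH hearts. Neither gene's groups overlapped: every TAC-LVH heart had more Rpl3 and less Rpl3l than every Sham-LVH heart. The log2 fold change at 2 weeks was 0.74 ± 0.10 (SE) for Rpl3, with an adjusted p of 0.000137 from edgeR's quasi-likelihood test with Benjamini-Hochberg adjustment over all genes tested, which is the test behind every adjusted p given here. For Rpl3l it was -1.57 ± 0.18 (SE), with an adjusted p of 6.04e-05.

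At 8 weeks the pair was again apart. Rpl3 had 73.8, 62.5, 66.5 and 61.8 CPM in TAC-HF hearts, against 41.9, 45.1, 41.8 and 41.0 CPM in Sham-HF hearts. Rpl3l had 14.7, 20.5, 15.0 and 16.4 CPM in TAC-HF hearts, against 32.7, 37.1, 37.9 and 43.4 CPM in Sham-HF hearts. The groups were separate for both genes, and the log2 fold changes were 0.64 ± 0.08 (SE) for Rpl3 (adjusted p = 8.76e-05) and -1.18 ± 0.12 (SE) for Rpl3l (adjusted p = 9.70e-06), by edgeR. Both genes kept their direction and their call at both times under each of the 17 alternatives run for each time, each library left out included.

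The ratio of Rpl3l to Rpl3 sets the paralogs on a common scale, counts per base of transcript. It was 0.0830, 0.139, 0.162 and 0.109 in TAC-LVH hearts, against 0.838, 0.577, 0.438 and 0.632 in Sham-LVH hearts. In TAC-HF hearts it was 0.196, 0.322, 0.221 and 0.260, against 0.768, 0.808, 0.891 and 1.04 in Sham-HF hearts. The ratio in every TAC heart was therefore below that in every sham heart of its own comparison. Rpl3l made up 10.9% ± 2.75 of the pair in TAC-LVH and 37.8% ± 6.25 in Sham-LVH hearts, and 19.9% ± 3.47 in TAC-HF and 46.6% ± 3.34 in Sham-HF hearts (SD, n = 4 each). Running hearts had a ratio of 0.832 ± 0.0610 and Sedentary hearts 0.888 ± 0.0897 (SD, n = 4 each), with overlapping values. The sum of the pair was 95.1 ± 2.66 CPM in TAC-LVH and 82.5 ± 4.42 CPM in Sham-LVH hearts, 82.8 ± 4.30 CPM in TAC-HF and 80.2 ± 4.22 CPM in Sham-HF hearts, and 85.7 ± 3.47 CPM in Running and 86.7 ± 5.02 CPM in Sedentary hearts (SD, n = 4 each). These ratios and sums are descriptions without a test of their own.

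**Figure D1:**
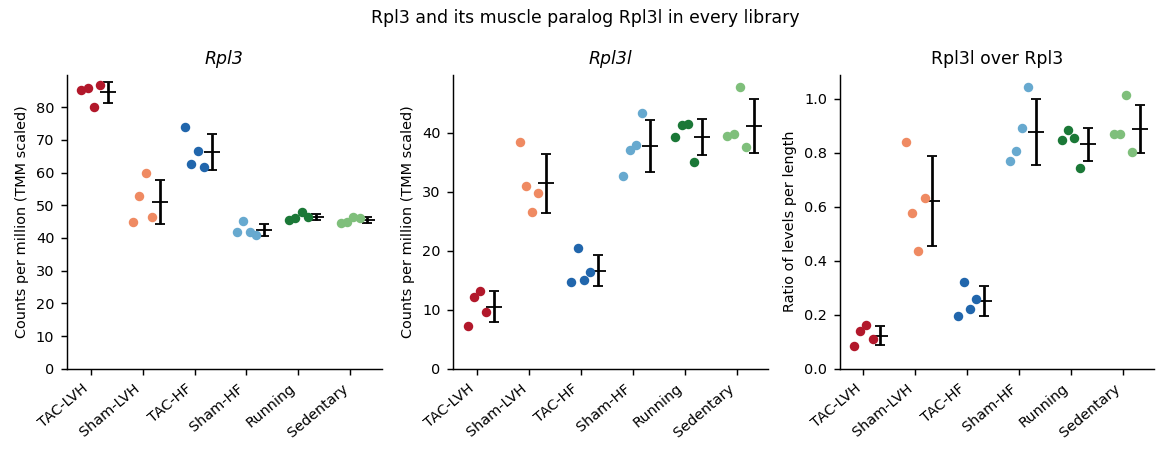
Level of Rpl3, level of Rpl3l (both in CPM) and the ratio of their levels per length, on vertical axes that start at 0. Each coloured point is 1 of the 4 libraries of a group, the black dash and bar are the mean and SD, and the TAC groups sit above their shams for Rpl3 and below them for Rpl3l and the ratio, while Running and Sedentary hearts overlap.

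At 8 weeks after TAC (TAC-HF against Sham-HF), most ribosomal protein transcripts were modestly higher. Of the 86 members tested, 60 were called higher (69.8%) and 1 lower, Rpl3l, while over all 13621 genes tested 14.9% were called higher and 14.7% lower. The 77 standard members all had a log2 fold change above 0, with a median of 0.34 and a range of 0.08 to 0.73, beside a median of 0.00 over all genes, and 59 of the 77 were called. Large-subunit genes were called in 34 of 46 cases (median 0.32) and small-subunit genes in 25 of 31 (median 0.36). In 53 of the 60 called higher (88.3%), the lowest TAC-HF heart lay above the highest Sham-HF heart, and so it did in 1710 of the 2032 genes called higher over the whole table (84.2%), which are 12.6% of all genes tested. The share without overlap is thus close to that of called genes at large. Leaving out Sham-HF replicate 4 brought the count called higher to 31, and leaving out TAC-HF replicate 1 brought it to 33. The medians over the 86 were 0.30 and 0.30. Over all genes, these fits called 1446 of 13892 and 1604 of 13833 higher, against 2032 of 13621 with all libraries. Without Sham-HF replicate 1 the count called lower was 2.

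Genes of the stalk were called higher in part, Rplp1, Rplp2 and Rpl12 being called and Rplp0 not. The stalk is the arm of the large subunit that recruits the elongation factors. Rplp1 had 107, 79.1, 122 and 95.1 CPM in TAC-HF hearts, against 72.5, 70.1, 68.2 and 60.4 CPM in Sham-HF hearts. All its TAC-HF values were higher, with a log2 fold change of 0.58 ± 0.12 (SE) and an edgeR adjusted p of 0.00261. Rplp2 rose by 0.32 ± 0.12 (SE) on the log2 scale with overlapping groups, at an edgeR adjusted p of 0.0469, and lost its call under 10 of the 17 alternatives. Rplp0, the base that holds both, had 213, 192, 225 and 192 CPM in TAC-HF hearts, against 197, 186, 183 and 180.3 CPM in Sham-HF hearts, and was not called, with a log2 fold change of 0.14 ± 0.08 (SE) (edgeR, adjusted p = 0.228). Rpl12, which sits at the foot of the stalk, rose by 0.47 ± 0.10 (SE) (edgeR, adjusted p = 0.0027). Whether the stalk genes differ from each other in their change was not tested.

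Among other large-subunit genes, Rpl39, whose product lines the exit tunnel for the new peptide, had 25.8, 20.6, 29.1 and 25.7 CPM in TAC-HF hearts, against 16.7, 14.9, 16.1 and 13.1 CPM in Sham-HF hearts. Its groups did not overlap, and its log2 fold change of 0.73 ± 0.11 (SE) (edgeR, adjusted p = 0.000313) was the largest of the standard members. Rpl10a, part of the mobile arm beside the exit site for transfer RNA, rose by 0.50 ± 0.10 (SE) on the log2 scale (edgeR, adjusted p = 0.00191). Rpl13a, which in human monocytes also acts outside the ribosome to silence inflammatory messages, rose by 0.50 ± 0.10 (SE) (edgeR, adjusted p = 0.00172). Rpl10, a late-joining protein needed before the subunits can pair, rose by 0.31 ± 0.08 (SE) (edgeR, adjusted p = 0.0119). Rpl5 and Rpl11, which also bind the p53 inhibitor Mdm2 when ribosome assembly fails, rose by 0.25 and 0.33 with edgeR adjusted p of 0.0434 and 0.026, and lost their call under 6 and 5 of 17 alternatives. Rpl7 rose by 0.35 (edgeR, adjusted p = 0.012).

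In the small subunit, Rps10 had 42.9, 32.6, 49.6 and 33.7 CPM in TAC-HF hearts, against 27.4, 28.5, 29.7 and 22.3 CPM in Sham-HF hearts. Its log2 fold change was 0.56 ± 0.14 (SE) (edgeR, adjusted p = 0.0102), and all TAC-HF hearts were above all Sham-HF hearts. Rps7 had 78.3, 59.4, 91.3 and 67.3 CPM in TAC-HF hearts, against 53.4, 49.97, 51.4 and 47.7 CPM in Sham-HF hearts. It rose by 0.55 ± 0.12 (SE) (edgeR, adjusted p = 0.00292), again without overlap, and in people mutations of either gene cause Diamond-Blackfan anaemia. Rps12, which in fruit flies takes part in cell competition, rose by 0.48 ± 0.08 (SE) (edgeR, adjusted p = 0.000636). Rps6, the protein that S6 kinase phosphorylates below mTOR, and Rpsa, also known as a laminin receptor, rose by 0.24 and 0.24, with edgeR adjusted p of 0.0404 and 0.0399. Each of these last 2 lost its call under 8 of 17 alternatives.

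The 18 standard members that were not called at 8 weeks included Rpl4, Rpl7a, Rpl8, Rpl9, Rpl14, Rpl19, Rpl24, Rpl27, Rpl28, Rpl29, Rplp0, Rps2, Rps4x, Rps9, Rps16, Rps27a and Rps29. Rpl29 and Rpl28 had the smallest log2 fold changes, 0.08 ± 0.09 (SE) and 0.10 ± 0.10 (SE). Rps2, the member with the highest level per length, had 184, 166, 203 and 161 CPM in TAC-HF hearts, against 177, 159, 171 and 159.6 CPM in Sham-HF hearts, and its values overlapped. Rps27a, which is made as a fusion with ubiquitin, had a log2 fold change of 0.15 ± 0.09 (SE) (edgeR, adjusted p = 0.245).

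**Figure D2:**
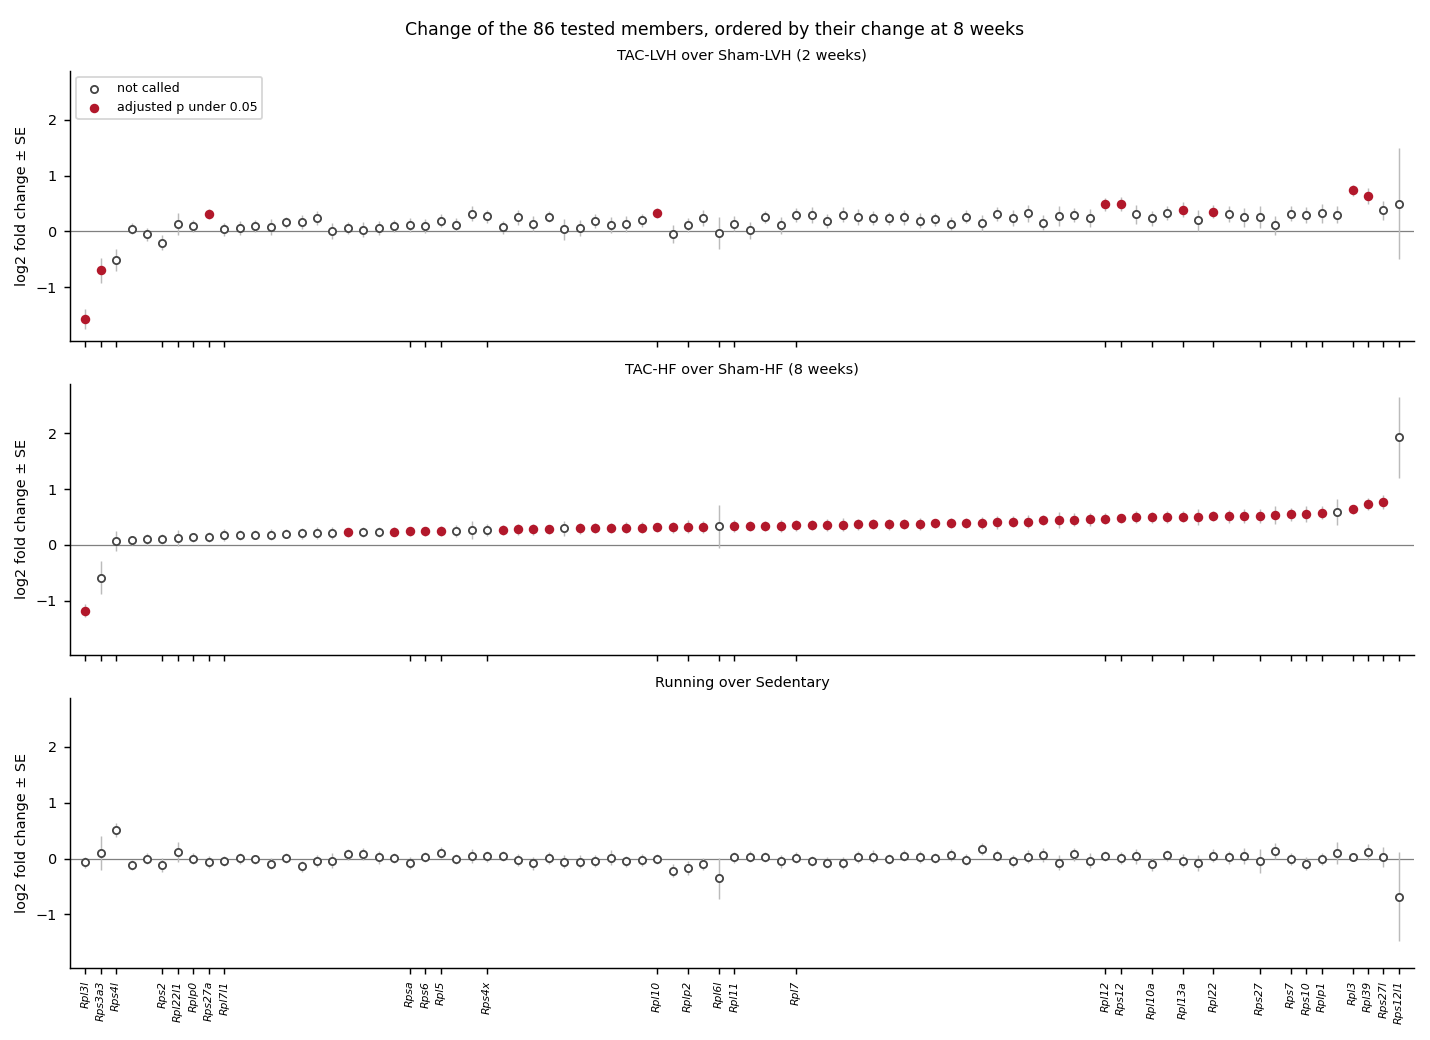
Log2 fold change with its SE (vertical axis) of the 86 tested members, in the same order in each panel, from the lowest to the highest change at 8 weeks, with some of them named below the axis. Filled points passed an adjusted p of 0.05 and open points did not: 10 members are filled at 2 weeks, 61 at 8 weeks and 0 for running, and Rpl3l stands lowest in both TAC panels.

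At 2 weeks after TAC (TAC-LVH against Sham-LVH), few members were called. Of the 86 tested, 8 were called higher (9.30%) and 2 lower, while over all 14224 genes tested 17.1% were called higher and 16.1% lower. The 77 standard members had a median log2 fold change of 0.22, between -0.21 and 0.74, and 74 of the 77 were above 0, beside a median of 0.00 over all genes. The members called higher were Rpl3, Rpl10, Rpl12, Rpl13a, Rpl22, Rpl39, Rps12 and Rps27a, and those called lower were Rpl3l and the pseudogene Rps3a3. In 6 of the 8 called higher the groups did not overlap, beside 2087 of the 2428 genes called higher over the whole table (85.96%), which are 14.7% of all genes tested. Rpl22 and Rpl13a were the exceptions.

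The count called higher depended most on Sham-LVH replicate 3. That library was the highest of the 4 Sham-LVH hearts for 77 of the 77 standard members, and their summed level in it was 5627 CPM, against 3938 to 4878 CPM in the other Sham-LVH hearts. Without that library 41 members were called higher and 2 lower, with a median over the 86 of 0.33, against 0.20 with it. Over all genes, 2310 of 14394 were then called higher, against 2428 of 14224 with it. Without TAC-LVH replicate 1, the heart with the lowest value for 70 of the 77, 14 members and 2057 of 14525 genes were called higher. Without Sham-LVH replicate 4, TAC-LVH replicate 2 or TAC-LVH replicate 4, 5 members were called higher in each case. The whole-table counts were then 2338 of 14387, 2201 of 14577 and 2060 of 14241, in the same order. Only Rpl3l was called lower without any 1 of TAC-LVH replicates 1, 2 and 4 and Sham-LVH replicates 1 and 4. With scaling to library totals alone, 79 members were called higher and 1 lower, but so were 6995 and 614 of all 14224 genes tested, with a median log2 fold change over all genes of 0.41 and over the members of 0.60.

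Of the other members called higher at 2 weeks, Rpl39 had 28.2, 35.7, 36.3 and 32.2 CPM in TAC-LVH hearts, against 17.4, 22.4, 28.0 and 17.8 CPM in Sham-LVH hearts. Its log2 fold change was 0.63 ± 0.15 (SE) (edgeR, adjusted p = 0.00552), and the groups came close without overlapping. Rps12 had 63.7, 85.1, 79.3 and 68.3 CPM in TAC-LVH hearts, against 49.0, 55.6, 61.6 and 46.2 CPM in Sham-LVH hearts, a log2 fold change of 0.49 ± 0.12 (SE) (edgeR, adjusted p = 0.00633). Rpl12 had 59.2, 72.1, 69.7 and 64.1 CPM in TAC-LVH hearts, against 40.1, 48.2, 58.3 and 43.6 CPM in Sham-LVH hearts, a log2 fold change of 0.48 ± 0.12 (SE) (edgeR, adjusted p = 0.00658). In both genes Sham-LVH replicate 3 was the sham heart nearest to the TAC hearts. Rpl10 rose by 0.33 ± 0.09 (SE) (edgeR, adjusted p = 0.0145). Rps27a rose by 0.31 ± 0.09 (SE) (edgeR, adjusted p = 0.0174) and was the member called higher at 2 weeks and not at 8 weeks. Its call at 2 weeks was lost under 3 of 17 alternatives. Rpl13a and Rpl22 rose by 0.39 and 0.35, with edgeR adjusted p of 0.0302 and 0.0393, and each lost its call under 6 of 17 alternatives.

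Among members not called at 2 weeks, Rps2 had 150.0, 192, 179 and 159 CPM in TAC-LVH hearts, against 159.9, 214, 238 and 177 CPM in Sham-LVH hearts. Its log2 fold change of -0.21 ± 0.13 (SE) was the lowest of the standard members, with overlapping groups (edgeR, adjusted p = 0.265). Rplp0 had 0.09 ± 0.11 (SE), Rps6 0.09 ± 0.12 (SE) and Rpsa 0.11 ± 0.12 (SE) as log2 fold change, with edgeR adjusted p of 0.558, 0.592 and 0.512. For Rps4x, encoded on the X chromosome, the log2 fold change was 0.27 at 8 weeks and 0.27 at 2 weeks, with edgeR adjusted p of 0.0591 and 0.0974.

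The standard members varied together from heart to heart within a group. Besides Sham-LVH replicate 3, TAC-HF replicate 3 was the highest of its group for 72 of the 77 and Running replicate 2 for 64 of the 77. Running replicate 4 was the lowest of its group for 72, TAC-LVH replicate 1 for 70 and Sham-HF replicate 4 for 62 of the 77. Their summed level ran from 4637 to 5686 CPM in TAC-LVH and from 3938 to 5627 CPM in Sham-LVH hearts, from 4362 to 5627 CPM in TAC-HF and from 3696 to 4086 CPM in Sham-HF hearts, and from 2914 to 3831 CPM in Running and from 3178 to 3604 CPM in Sedentary hearts. Only the TAC-HF and Sham-HF ranges were separate. Both sham ranges lay above that of the Sedentary hearts; this is a description, and these groups were not tested against each other.

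**Figure D3:**
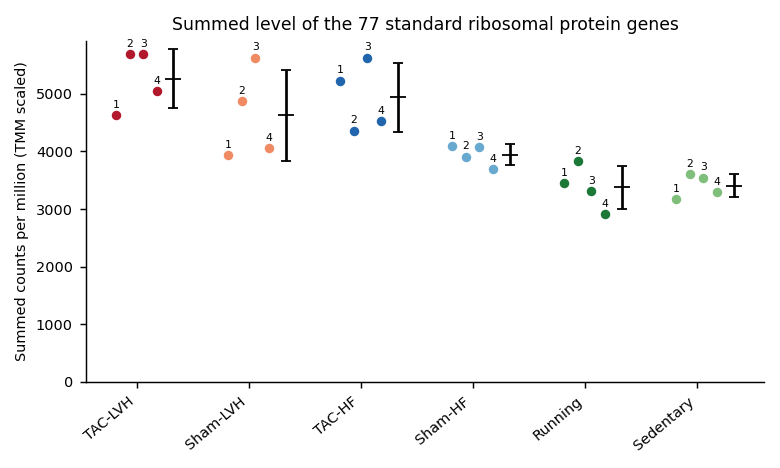
Summed level of the 77 standard members in CPM (vertical axis, from 0) in the 6 groups. Each point is a library with its replicate number, and the dash and bar are the mean and SD of 4. TAC-HF hearts, at 4362 to 5627 CPM, sit above Sham-HF hearts, at 3696 to 4086 CPM, and Sham-LVH replicate 3, at 5627 CPM, reaches the range of the TAC-LVH hearts.

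**Figure D4:**
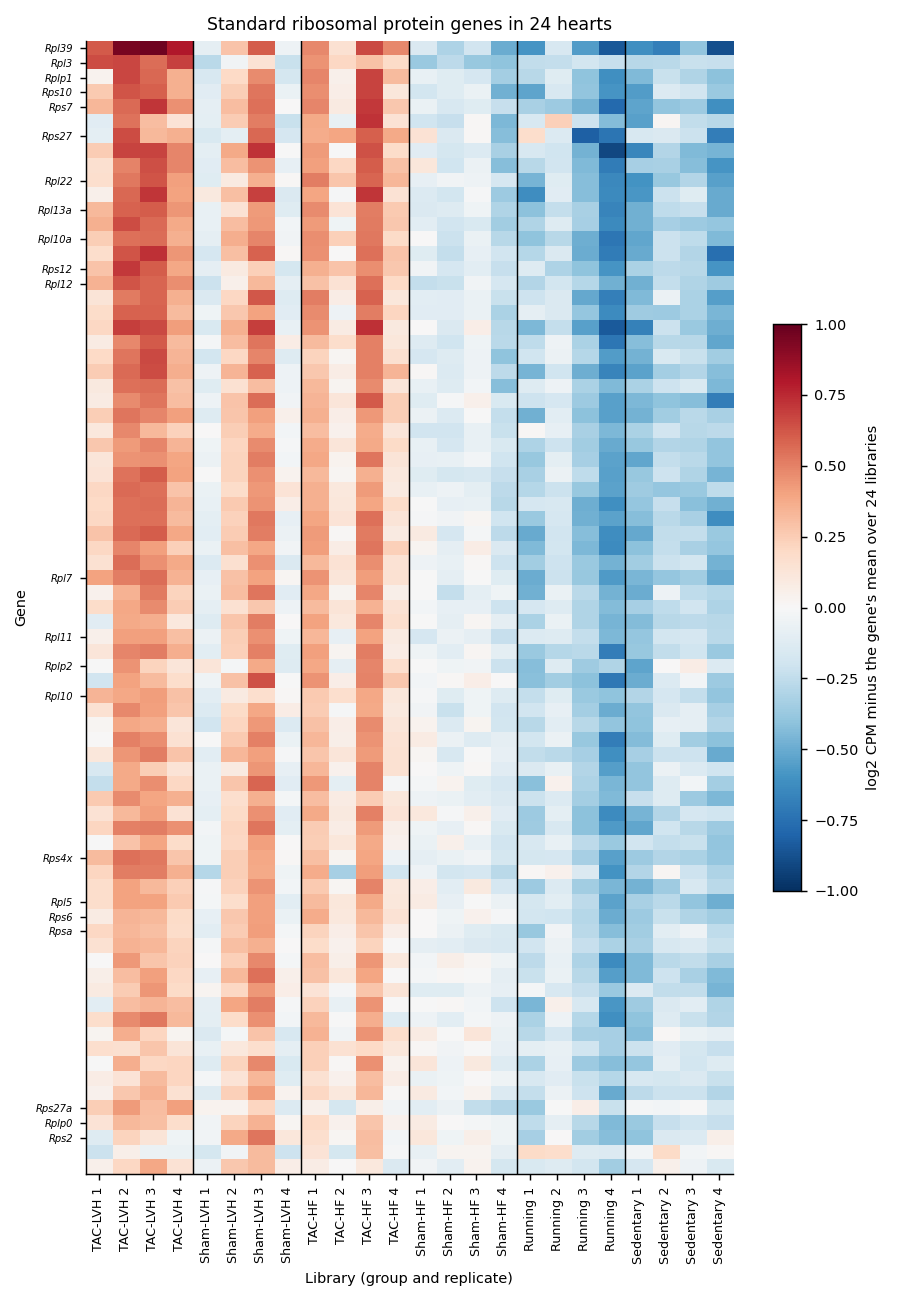
Log2 CPM minus the gene's mean over the 24 libraries (colour, from -1 in blue to 1 in red) for the 77 standard members (down the page, from the largest to the smallest change at 8 weeks, some of them named) in every library (across, by group). Columns are close to a single shade, as in Sham-LVH replicate 3, the highest of its group in 77 of 77 genes, and Running and Sedentary hearts are mostly blue.

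The members called at both times overlapped in part. Of the 8 called higher at 2 weeks, 7 were called higher at 8 weeks (87.5% of the 8 and 11.7% of the 60), namely Rpl3, Rpl10, Rpl12, Rpl13a, Rpl22, Rpl39 and Rps12, and Rpl3l was lower at both. Across the 77 standard members the log2 fold changes of the 2 times had a Pearson r of 0.71 and a Spearman rho of 0.66. The times share no library, but the genes of a library vary together and are not independent replicates. When the effects were tested against each other, as the effect of TAC at 8 weeks minus that at 2 weeks, 0 members were called higher and 0 lower, over a table with 0.933% called higher and 0.422% lower. In that comparison 1 member, Rps4l, had an unadjusted p under 0.05 by edgeR, as did 2764 of all 14463 genes tested. DESeq2 called 0 members, while it called 430 of the 14463 genes higher and 196 lower. The standard members' median difference was 0.16, and it was lowest over all 86, at 0.05, without Sham-LVH replicate 3. For Rpl3 the difference was -0.09 ± 0.13 (SE) and for Rpl3l 0.40 ± 0.23 (SE) on the log2 scale (edgeR, adjusted p of 0.755 and 0.353), so neither a smaller nor a larger change at 8 weeks was shown.

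In Running against Sedentary hearts the ribosomal protein genes were close to level. edgeR called 0 members higher and 0 lower, as it called 0% of all 13824 genes tested in each direction. An unadjusted p under 0.05 was reached by 665 genes and by 1 member, the pseudogene Rps4l. DESeq2 called 0 members, and of all 13824 genes it called 4 higher and 5 lower. The 77 standard members had a median log2 fold change of 0.00, between -0.22 and 0.18, with 38 of the 77 above 0. Rpl3 had 45.6, 46.0, 47.8 and 46.3 CPM in Running hearts, against 44.6, 44.9, 46.4 and 46.2 CPM in Sedentary hearts, a log2 fold change of 0.03 ± 0.08 (SE). Rpl3l had 39.3, 41.3, 41.6 and 35.0 CPM in Running hearts, against 39.4, 39.7, 47.8 and 37.7 CPM in Sedentary hearts, a log2 fold change of -0.06 ± 0.10 (SE). For Rplp1, Rps7 and Rps12 the log2 fold changes were -0.00 ± 0.11 (SE), -0.00 ± 0.11 (SE) and 0.01 ± 0.11 (SE). Rps4l had 4.87, 4.68, 5.26 and 4.82 CPM in Running hearts, against 3.32, 3.62, 3.45 and 3.36 CPM in Sedentary hearts; the groups did not overlap, and the adjusted p was 0.714 (edgeR).

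The effect of TAC was also set against that of running. For TAC at 2 weeks minus running, 2 members were called higher, Rpl3 by 0.70 ± 0.12 (SE) and Rpl12 by 0.44 ± 0.15 (SE), and 2 lower, Rpl3l by -1.51 ± 0.21 (SE) and Rps4l by -1.02 ± 0.24 (SE), while 9.5% of all 14729 genes tested were called higher and 9.56% lower. Their edgeR adjusted p were 0.000526, 0.0484, 5.36e-05 and 0.00435. Rpl3 and Rpl3l kept their call under each of 25 alternatives, while Rpl12 lost it under 14. The count called higher was 9 without Sham-LVH replicate 3 and 4 without Running replicate 2. It was 1 without any 1 of Sedentary replicates 2 and 3, Running replicate 4, Sham-LVH replicates 1, 2 and 4 and TAC-LVH replicates 2, 3 and 4. Over all genes tested, the count called higher was 1141 to 1442 with a library left out, against 1399 with all of them.

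For TAC at 8 weeks minus running, 14 members were called higher and Rpl3l lower, while 5.74% of all 14252 genes tested were called higher and 5.35% lower. Among those called higher, Rpl3 had a difference of 0.62 ± 0.11 (SE) (edgeR, adjusted p = 0.00091) and Rpl10a of 0.61 ± 0.15 (SE) (edgeR, adjusted p = 0.0131). Rpl13a had 0.55 ± 0.15 (SE) and Rps12 0.48 ± 0.14 (SE), with edgeR adjusted p of 0.0248 and 0.0289. For Rpl3l the difference was -1.11 ± 0.16 (SE) (adjusted p = 0.000114). Rpl3, Rpl3l and Rpl10a kept their call under each of 25 alternatives. The count called higher was unsteady. It was 2 without any 1 of Sedentary replicates 2 and 3, Sham-HF replicate 4 and TAC-HF replicates 1 and 3, and 3, 4 and 5 without Running replicate 4, Running replicate 3 and Sham-HF replicate 2. It was 8 without Running replicate 1, Sham-HF replicate 3 or TAC-HF replicate 4, 9 without Sedentary replicate 4, 24 without TAC-HF replicate 2 and 27 without Running replicate 2. Over all genes tested, the count called higher was 575 to 866 with a library left out, against 818 with all of them. Both differences share the Running and Sedentary libraries, so they are not independent of each other.

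The other paralogs did not show the opposed change of Rpl3 and Rpl3l. Rps27l, a small-subunit paralog that is a target of p53, had 14.9, 10.8, 17.0 and 15.0 CPM in TAC-HF hearts, against 8.54, 8.63, 8.69 and 7.90 CPM in Sham-HF hearts. It rose by 0.77 ± 0.13 (SE) at 8 weeks (edgeR, adjusted p = 0.000508), and its standard counterpart Rps27 rose by 0.52 ± 0.12 (SE) (adjusted p = 0.00592). At 2 weeks the log2 fold changes were 0.38 ± 0.17 (SE) for Rps27l and 0.26 ± 0.19 (SE) for Rps27, and neither was called (edgeR, adjusted p of 0.107 and 0.338). The ratio of Rps27l to Rps27 per length was 0.883 ± 0.136 in TAC-HF and 0.757 ± 0.102 in Sham-HF hearts, and 1.01 ± 0.203 in TAC-LVH and 0.946 ± 0.168 in Sham-LVH hearts (SD, n = 4 each). The coding sequences of these paralogs are much alike, and how far the estimated counts divide shared reads between them is uncertain.

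Rpl22, an RNA-binding protein of the large subunit, had 42.3, 35.9, 44.4 and 37.4 CPM in TAC-HF hearts, against 28.1, 29.0, 28.7 and 26.5 CPM in Sham-HF hearts, and rose by 0.51 ± 0.09 (SE) (edgeR, adjusted p = 0.000731). Rpl22l1, which Rpl22 represses in mouse cells, had log2 fold changes of 0.12 ± 0.15 (SE) at 8 weeks and 0.13 ± 0.20 (SE) at 2 weeks and was not called (edgeR, adjusted p of 0.573 and 0.654). The ratio of Rpl22l1 to Rpl22 per length was 0.111 ± 0.00774 in TAC-HF and 0.144 ± 0.0227 in Sham-HF hearts, and 0.146 ± 0.0179 in TAC-LVH and 0.166 ± 0.0313 in Sham-LVH hearts (SD, n = 4 each), with overlapping ranges at both times. Rpl7l1 had log2 fold changes of 0.17 ± 0.11 (SE) at 8 weeks and 0.04 ± 0.12 (SE) at 2 weeks and was not called. Its ratio to Rpl7 per length was 0.109 ± 0.0146 in TAC-HF and 0.122 ± 0.0135 in Sham-HF hearts, and 0.0876 ± 0.00863 in TAC-LVH and 0.105 ± 0.00807 in Sham-LVH hearts (SD, n = 4 each), again with overlapping ranges.

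The 5 members annotated as pseudogenes were low. The members with the lowest level per length among those tested were Rpl6l, Rps12l1 and Rps3a3, with 0.788, 1.53 and 2.31 CPM per kilobase over the 24 libraries. Rps3a3 had 1.25, 1.02, 1.75 and 1.229 CPM in TAC-LVH hearts, against 2.79, 1.62, 1.801 and 2.25 CPM in Sham-LVH hearts. Its log2 fold change at 2 weeks was -0.70 ± 0.22 (SE) with overlapping groups (edgeR, adjusted p = 0.0262), and it lost the call under 7 of 17 alternatives. Rps12l1 had 0 to 60 counts in a library and the highest fitted log2 fold change at 8 weeks, 1.93 ± 0.73 (SE), which was not called (edgeR, adjusted p = 0.0761). Reads of the standard genes can be assigned to such copies and the reverse.

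On the scale of CPM per kilobase of transcript, averaged over the 24 hearts, members with a high level were Rps2 at 173, the highest of all, and Rplp1 at 158. Rps2 lies at the entry of the messenger RNA channel. Rpl41 was at 143, Rplp0 at 138, Rps14 at 121 and Rpl26 at 117, named for their high place in the order. The order depends on the annotated transcript length, which ran from 271 to 3706 bases in the standard members (median 751).

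The standard members were also split by the length of this pyrimidine run near the listed start, which need not be the length of a TOP tract. Of those with a listed promoter, 27 had a run of at least 8, with a median log2 fold change of 0.35 at 8 weeks and 21 called higher, and 30 had a shorter run, with a median of 0.34 and 23 called higher. At 2 weeks the medians were 0.20 and 0.21, and 3 were called higher in each set.

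The genes for the proteins of the mitochondrial ribosome, a separate set of 77, went another way at 2 weeks. Of these 77, 0 were called higher and 29 lower (37.7%) by edgeR, with a median log2 fold change of -0.33. Among all genes tested 17.1% were called higher and 16.1% lower. At 8 weeks 8 were called higher (10.4%) and 4 lower (5.19%), with a median of 0.08, beside 14.9% and 14.7% of all genes tested. Of 4 ribosomal genes outside the name rule, 3 were called higher at 8 weeks and 1 was not. Rack1, Fau and Rpl36al rose by 0.35, 0.33 and 0.33 (edgeR, adjusted p of 0.0122, 0.0357 and 0.0416). At 2 weeks 0 of the 4 were called in either direction by edgeR, with log2 fold changes between -0.21 and 0.30.

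Among short transcripts other than those of ribosomal proteins, more were also called higher than lower at 8 weeks. Of 834 other protein-coding genes with a transcript under 1000 bases, 225 were called higher (27.0%) and 47 lower (5.64%). The shares over all genes tested were 14.9% and 14.7%. The median log2 fold change of these short genes was 0.21, while 59 of the 77 standard members are under that length. At 2 weeks 138 of 862 such genes were called higher (16.0%) and 127 lower (14.7%), with a median of -0.01. Among all genes tested 17.1% were then higher and 16.1% lower. The part of transcript length in the members' change was not tested, and this set was chosen after the members' values were seen.

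Some genes for making ribosomes were higher at 8 weeks. The shares over all genes tested were 14.9% higher and 14.7% lower at 8 weeks, and 17.1% higher and 16.1% lower at 2 weeks. Of 42 ribosome biogenesis genes, 10 were called higher (23.8%) and 0 lower at 8 weeks, with a median of 0.14. Among them Rrp12, which takes part in the export of the subunits, rose by 0.76, Pes1, a factor of large-subunit assembly, by 0.62 and Nhp2, a part of the particles that modify ribosomal RNA, by 0.75 (edgeR, adjusted p of 0.000497, 0.00184 and 0.00209). At 2 weeks 1 was called higher, Nip7, and 2 lower, Dkc1 and Rrs1, of the 42. RNA polymerase I transcribes the large ribosomal RNAs. Of 21 genes of this polymerase and its regulators, 3 were called higher (14.3%) and 1 lower (4.76%) at 8 weeks. At 2 weeks 1 was called higher (4.76%) and 3 lower (14.3%). None of these shares was above that over all genes. Polr1a, the catalytic subunit of the polymerase, fell at both times, with log2 fold changes of -0.35 at 8 weeks and -0.76 at 2 weeks (edgeR, adjusted p of 0.0096 and 0.000109). Myc rose by 1.01 at 2 weeks (edgeR, adjusted p = 0.0309).

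Of 13 translation elongation genes, 6 were called higher (46.2%) and 1 lower at 8 weeks, and 2 higher (15.4%) and 3 lower (23.1%) at 2 weeks. Among all genes tested, 14.9% were higher and 14.7% lower at 8 weeks, and 17.1% higher and 16.1% lower at 2 weeks. The elongation factor Eef1a1, made in most cells, rose by 0.57 at 8 weeks and 0.79 at 2 weeks, while its form of muscle and nerve, Eef1a2, had log2 fold changes of -0.24 and -0.57 and was called lower at both times (edgeR, adjusted p of 0.000147 and 9.37e-05 for Eef1a1, and 0.0292 and 0.000482 for Eef1a2, in the same order). As in Rpl3 and Rpl3l, the general form was higher and the muscle form lower, a likeness singled out after the values were seen. Of 37 initiation genes, 9 were called higher (24.3%) and 1 lower at 8 weeks. Among them the helicase Eif4a1 was up by 0.54 at 8 weeks (edgeR, adjusted p = 0.000382). At 2 weeks 3 initiation genes were higher (8.11%) and 5 lower (13.5%), both below the shares over all genes. Of 26 other messages known to carry a TOP tract, 11 were called higher (42.3%) and 1 lower at 8 weeks. At 2 weeks 5 were called higher (19.2%) and 2 lower. Vim, also a fibroblast gene, rose by 0.79 at 8 weeks and 1.06 at 2 weeks (edgeR, adjusted p of 2.16e-05 and 1.27e-05). Naca, a chaperone of new peptides, was called lower at both times, with -0.49 at 8 weeks and -0.44 at 2 weeks (edgeR, adjusted p of 0.000832 and 0.00445).

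Of 29 genes of mTOR signalling and TOP message control, 2 were called higher and 7 lower (24.1%) at 8 weeks. At 2 weeks 2 were called higher and 9 lower (31.0%). Among all genes tested, 14.9% were higher and 14.7% lower at 8 weeks, and 17.1% higher and 16.1% lower at 2 weeks. The kinase gene Akt2 had log2 fold changes of -0.53 at 8 weeks and -0.60 at 2 weeks, and Mtor had -0.43 at 2 weeks (edgeR, adjusted p of 0.000147, 0.000233 and 0.00118). Tsc1 and Tsc2, which restrain mTOR, were lower as well, with log2 fold changes of -0.46 for Tsc1 at 8 weeks and -0.49 for Tsc2 at 2 weeks (edgeR, adjusted p of 0.00434 and 0.0011). Eif4ebp1, a translation repressor that mTOR switches off, rose by 0.56 at 8 weeks (adjusted p = 0.00128). Of 18 genes for the quality control of stalled ribosomes, edgeR called 0 higher and 5 lower (27.8%) at 8 weeks. At 2 weeks it called 0 higher and 4 lower (22.2%). Among them Rnf10, which ubiquitinates small-subunit proteins, had log2 fold changes of -0.45 at 8 weeks and -0.49 at 2 weeks (edgeR, adjusted p of 0.0269 and 0.00321). Of 14 genes of p53 and its targets, 5 were called higher (35.7%) and 0 lower at 8 weeks. At 2 weeks 4 were called higher (28.6%) and 1 lower. Phlda3, an inhibitor of Akt, was called higher at both times (edgeR, adjusted p of 7.64e-05 at 8 weeks and 7.27e-06 at 2 weeks), by 1.56 at 2 weeks. In Running against Sedentary hearts 0 genes of these lists were called in either direction by edgeR.

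**Figure D5:**
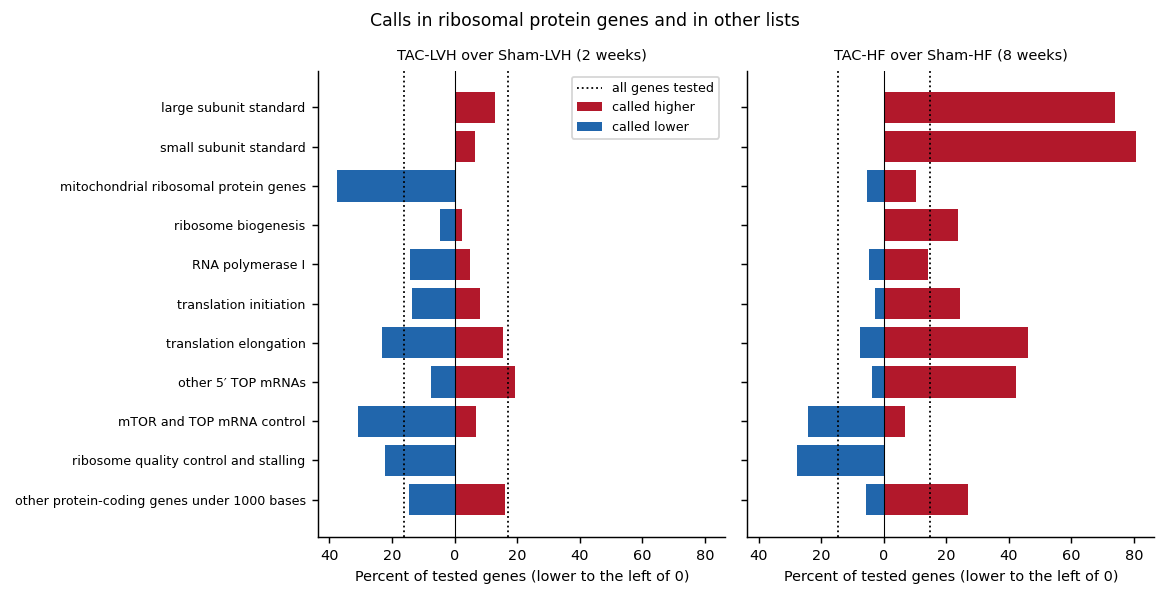
Percent of the tested genes of each list called higher (red, to the right of 0) and lower (blue, to the left) at 2 weeks and at 8 weeks after TAC, with dotted lines at the share over all genes tested. At 8 weeks 73.9% of large-subunit and 80.6% of small-subunit standard genes were called higher, against 14.9% of all genes, and at 2 weeks 37.7% of mitochondrial ribosomal protein genes were called lower, against 16.1% of all genes.

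Markers of other cells moved with TAC as well, and in bulk tissue fewer cells of a type cannot be told apart from less RNA per cell. The summed level of 8 fibroblast markers ran from 2112 to 3407 CPM in TAC-LVH and from 493 to 714 CPM in Sham-LVH hearts, and from 1055 to 1596 CPM in TAC-HF and from 415 to 561 CPM in Sham-HF hearts. Of the 8, edgeR called 8 higher at 2 weeks and 7 at 8 weeks. The 8 macrophage markers summed to 273 to 359 CPM in TAC-LVH and 141 to 215 CPM in Sham-LVH hearts, and to 177 to 269.9 CPM in TAC-HF and 105 to 156 CPM in Sham-HF hearts, and all 8 were called higher at each time. The 8 cardiomyocyte markers summed to 11760 to 14454 CPM in TAC-LVH and 21122 to 24921 CPM in Sham-LVH hearts, and to 15801 to 17154 CPM in TAC-HF and 21886 to 24940 CPM in Sham-HF hearts, with 7 called lower at 2 weeks and 4 at 8 weeks. No marker of these lists was at 0 in any of these groups. Of 8 endothelial markers 4 were called higher at 2 weeks and 0 at 8 weeks, and of 8 smooth muscle and pericyte markers 4 were higher and 1 lower at 2 weeks and 3 higher and 1 lower at 8 weeks. T cell and B cell markers (4 each) summed to at most 0.975 and 1.46 CPM in a TAC or sham heart. Of 4 red blood cell markers 0 were called higher at 2 weeks and 2 at 8 weeks, and of the skeletal muscle markers only Ckm, which the heart also expresses, was tested, and it was lower at 2 weeks. The part of these cell types in the change of the ribosomal protein genes was not tested.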

How the data were processed

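The authors deposited 1 table of estimated counts per gene for the 24 libraries (the expected counts of Salmon, whole numbers, not scaled). The tools named in the submitters' processing notes are FastQC and Salmon, with mm9 as build; versions, annotation and strand setting: not given in the sources used here. RNA was isolated with Trizol and depleted with RiboZero, per the labels' protocols. The 1 row that names no gene held 0 counts and was left out, and the counts were used as deposited.

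Symbols came from a gene name table and lengths from a GENCODE annotation of GRCm38, matched by identifier (42462 of 43432). Promoter windows came from RefSeq (GRCm38.p6), and no coordinate was converted between builds. Each comparison was fitted over the whole table on its own groups with edgeR 4.0.16 in R 4.3.3 (filterByExpr, TMM, robust quasi-likelihood F test, two-sided, Benjamini-Hochberg over all genes tested, called under 0.05), and the members were read from it. Differences between effects are contrasts of group means in a fit of the 4 groups. The script was tested on simulated counts. Rows of 256 pseudogenes named after members with -ps held counts equal to 1.26% of the members' counts. For single members this share was up to 20.2%, in Rpl27, and it was 8.43% for Rps6. Copies with other names were not counted. Total counts per library were 16802939 to 39512101, and a gene of few counts has a wide standard error.

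The named members were fixed paralog pairs and stalk, signalling and p53-linked genes. To these came for each main comparison and direction the 6 called members that changed most, had no overlap and averaged at least 2 CPM, up to 5 called members with the smallest p in each difference of effects, and the 3 highest and 3 lowest per length. From 9 other lists up to 4 genes were named. Some genes are not reported here by name, though counts and medians include them. The members and lists were chosen with earlier results of these data known. Alternatives were RLE and no normalization factors, TMM without mitochondrial genes or without the members, no filter, DESeq2 1.42.0, all 24 libraries in 1 fit, a replicate block, pseudogene rows added to members, and each library left out.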

Additional observations from a re-analysis of the deposited data

Results flagged for a closer look

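In 5 of 186 sets of 4 libraries looked at (30 members in 6 groups, and all 77 standard members summed), 1 library lay far from the other 3; chance gives about 1 in 20. Rpl22l1 had 8.29 CPM in TAC-LVH replicate 3, against 6.09 to 6.44 CPM in the others of its group. Rps27 had 10.7 CPM in Sham-LVH replicate 3 (others 6.43 to 6.76), 10.9 CPM in TAC-HF replicate 3 (others 9.35 to 9.51) and 4.46 CPM in Sedentary replicate 4 (others 6.22 to 6.52). Rps27a had 16.3 CPM in Sedentary replicate 4 (others 18.1 to 18.4).

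For these members edgeR's test called a difference between the effect of TAC and that of running (log2 scale). For TAC at 8 weeks minus running the differences were 0.75 for Rps27l, 0.66 for Rps10, 0.62 for Rpl39, 0.62 for Rpl3, 0.61 for Rpl10a, 0.58 for Rplp1, 0.56 for Rps7, 0.55 for Rpl13a, 0.48 for Rps12, 0.47 for Rpl22, 0.44 for Rpl12 and -1.11 for Rpl3l. Of these, Rpl3, Rpl3l and Rpl10a kept the call under each of 25 alternatives, while Rpl22 lost it under 15, Rps27l and Rpl12 under 14, Rpl39 under 13, Rps7 under 10, Rps10 under 9, Rplp1 and Rps12 under 8 and Rpl13a under 5. For TAC at 2 weeks minus running they were 0.70 for Rpl3, 0.44 for Rpl12, -1.02 for Rps4l and -1.51 for Rpl3l, and Rpl12 lost the call under 14 alternatives and Rps4l under 1. For Rps4l the log2 fold change was -0.51 at 2 weeks after TAC and 0.51 for running, and neither was called.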

How the results depend on the processing

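Each of the 46 called changes of single named members kept its direction under every alternative run. Of these changes, 24 kept their call under all alternatives and 22 lost it under at least 1. Without mitochondrially encoded genes, 8 members were called higher and 2 lower at 2 weeks, and 61 higher and 1 lower at 8 weeks. Over all genes tested, that fit called 2418 of 14162 higher at 2 weeks and 2072 of 13586 at 8 weeks. Scaling to library totals moved the median of all genes by 0.41 at 2 weeks, 0.33 at 8 weeks and -0.08 for running on the log2 scale, and brought the members' medians to 0.60, 0.66 and -0.07. Under it 79 members were called higher and 1 lower at 2 weeks. For TAC at 2 weeks minus running 55 were called higher and 1 lower, and for TAC at 8 weeks minus running 68 higher. Over all genes tested it called 6995 of 14224, 4506 of 14729 and 3028 of 14252 higher, in the same order. For TAC at 2 weeks minus running, the members called higher numbered 1 with RLE factors or no filter, 4 with DESeq2 and 5 with all 24 libraries in 1 fit. For TAC at 8 weeks minus running that last fit gave 5. Over all genes the counts at 2 weeks were 1405, 1236, 1437 and 1470 in the same order, and 814 at 8 weeks. The cause was not tested.

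With each library left out in turn, the members called higher numbered 31 to 66 at 8 weeks and 5 to 41 at 2 weeks, and those called lower 1 to 2 and 1 to 3. For TAC at 8 weeks minus running 2 to 27 were called higher and 1 to 1 lower. For TAC at 2 weeks minus running 1 to 9 were called higher and 2 to 3 lower. For running and for TAC at 8 weeks minus at 2 weeks, 0 members were called in each case. The whole-table counts of these fits differed. For running they were 0 to 1 higher and 0 to 2 lower. For TAC at 8 weeks minus at 2 weeks they were 16 to 437 higher and 6 to 217 lower. Over all genes tested, the count called higher with a library left out was 1446 to 2096 at 8 weeks and 2057 to 2358 at 2 weeks. It was 575 to 866 for TAC at 8 weeks minus running and 1141 to 1442 for TAC at 2 weeks minus running.

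The labels do not say whether the replicate numbers pair the libraries. In their deviations from the group means, same-numbered libraries correlated at -0.027 to 0.276 at 2 weeks and -0.279 to 0.115 at 8 weeks. For running the range was 0.048 to 0.472, and these values do not settle whether the libraries are paired. With the number as a replicate block, 39 members were called higher at 2 weeks and 9 for TAC at 2 weeks minus running, and 58 at 8 weeks. Over all genes tested, the block gave 2683 of 14224, 1565 of 14729 and 1769 of 13621 called higher, in the same order.

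Depth limits the rare members: Rpl6l had 6 to 30 counts in a library, while Rps2 had 2332 to 6469.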
